A study of Homo sapiens with 6 samples.

Results

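The genes described here encode the machinery that licenses replication origins, fires them and copies DNA at the fork, with the enzymes that supply its nucleotides. The set was given as a list of 58 gene symbols, matched through GENCODE 44 to 58 of the 60605 Ensembl identifiers in the counts table, and 55 of them had enough counts to be tested. RNA was sequenced from H69AR, a small cell lung cancer cell line that was derived from NCI-H69 by selection in doxorubicin. All libraries came from this single line, grown in RPMI-1640 with serum, confluent at the time of treatment, and labelled wild type and epithelial. In 3 libraries the cells had received 70 nM Supinoxin, also called RX-5902, a compound whose reported target is the RNA helicase DDX5. The other 3 libraries came from cells without the drug. The sources used here give neither the length of exposure nor a vehicle for the untreated cells.

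Replication is prepared in G1, when the origin recognition complex, CDC6 and CDT1 load the ring-shaped MCM2-7 helicase onto DNA in an inactive form, a step called licensing. In S phase the kinases CDC7-DBF4 and CDK2 recruit CDC45 and GINS to the ring to form the active helicase, primase lays down primers, and polymerases epsilon and delta extend the leading and lagging strands behind it, held by the sliding clamp PCNA. Many of these genes are known targets of E2F transcription factors and peak together around the G1 to S transition.

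Total counts were 35868713, 36039854 and 34966826 in the Supinoxin libraries and 39402804, 35321551 and 30136963 in the untreated ones. Levels are CPM (counts scaled to a common library size of 1e6) scaled by the trimmed mean of M values (TMM), and 1 CPM stood for 30.7 to 38.2 counts. Untreated replicate 1 stood apart. The chi-square per degree of freedom between libraries was 80 and 86.8 for its pairs with the other untreated libraries, 21.7 between the other two, and 3.61 to 5.78 among the Supinoxin libraries. The labels do not say whether replicates were separate cultures, so the p-values reflect spread between libraries that may be technical. Of the 5 epithelial markers, KRT8 was at 112 CPM with Supinoxin and 165 CPM without and KRT18 at 32.3 and 36.7 CPM, EPCAM was at 1.22 and 10.3 CPM, and CDH1 and KRT19 were at most 0.0981 CPM on average in either group. The differences in KRT8 and KRT18 did not pass an edgeR adjusted p of 0.05 (0.0507 and 0.512). KRT8 was at 225 CPM in untreated replicate 1 and at 143 and 126 CPM in the other untreated libraries. Of the neuroendocrine markers, NCAM1 and INSM1 fell, with log2 fold changes of -1.53 and -0.72, and the summed list lay at 18.7 to 20.1 CPM with Supinoxin and 27.4 to 33.1 CPM without, with NEUROD1 listed at 0. ABCC1, the transporter that marks H69AR resistance, rose from 3526 ± 483 to 10476 ± 318 CPM (SD, n = 3 each; log2 fold change 1.57, edgeR adjusted p = 9.47e-05). EPCAM fell as well, with -3.08. The part of these changes in the results that follow was not tested. Summed leukocyte markers lay between 1.35 and 2.22 CPM over all libraries, fibroblast markers between 0.196 and 1.36 CPM and endothelial markers between 0.148 and 0.401 CPM.

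With Supinoxin, transcripts of the replication machinery were mostly lower. Of the 55 members tested, 34 fell, 3 rose and 18 did not pass the threshold (edgeR's quasi-likelihood test, Benjamini-Hochberg adjusted p under 0.05 over 15947 genes). Members that fell made up 61.8% of those tested, against 25.2% of all genes tested, and those that rose made up 5.45%, against 23.4%. The median log2 fold change (Supinoxin over untreated) was -0.55 over the members and 0 over all genes tested, and members ranged from -1.68 for RPA3 to 1.56 for TICRR. A fall of at least 2-fold was reached by 14 members, against 11.6% of all genes. Summed over the members, transcript levels were 5549, 5674 and 5553 CPM with Supinoxin and 9451, 8377 and 8118 CPM without. Every Supinoxin library lay below every untreated library in 39 members, against 31.1% of all genes, and above every untreated library in 6, against 31.3%. The groups overlapped in the other 10. In bulk RNA, fewer cells in S phase and less of these transcripts per cell cannot be told apart.

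**Figure D1:**
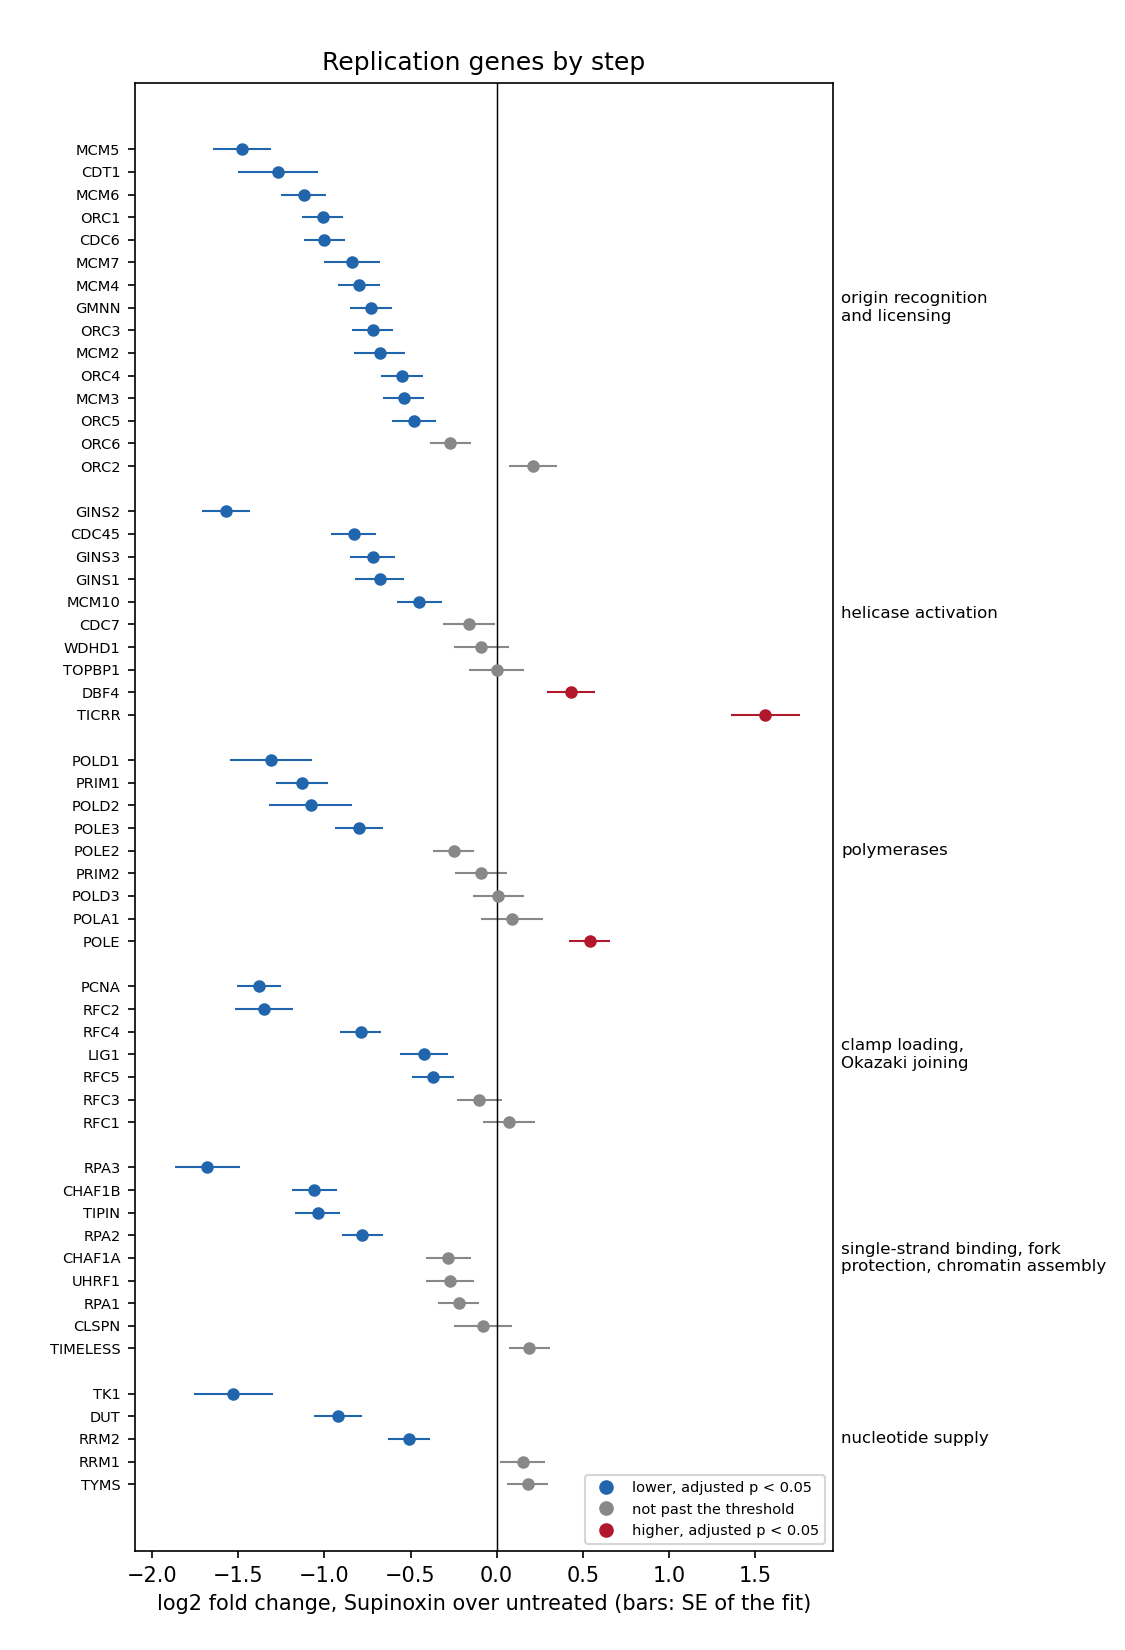
Log2 fold change (Supinoxin over untreated) of each tested member with its standard error, grouped by step. Licensing genes lie almost wholly to the left of 0, with ORC2 at 0.21 as the exception, whereas the other steps mix falls down to -1.68 with members near 0, and TICRR, POLE and DBF4 lie to the right.

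The calls did not rest on the untreated library that stood apart. Without it, 40 members fell and 3 rose, all 34 falls and 3 rises of the full comparison among them, and the median was -0.57. Over all genes, 4477 of 16348 fell and 4334 rose without that library. The sizes of some members' falls did move with that library. In CDT1, POLD1, POLD2 and TK1 that library was 0.83 to 0.93 (log2) above the mean of the other untreated libraries.

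Promoter windows were looked up because a shared E2F control is the textbook feature of this gene set. RefSeq windows (GRCh38.p14, 250 bases before to 50 after the start) were matched by symbol for 52 members, that is all but GINS4, MCM4, MCM5, POLD3, RPA2 and RPA3. Where a symbol had several windows, as for 15 members, the first listed was used. Words of the E2F type (TTTCCCGC, TTTCGCGC, TTTGCCGC and TTTGGCGC, searched on both strands, where words on opposite strands can overlap) were present in 21 of the 52, or 40.4%, against 3.33% of 27305 windows of the same length. The share was alike among members that fell (12 of 30, 40.0%) and those that did not pass the threshold (7 of 17, 41.2%), and 1 of the 3 that rose held a word. The word CCAAT was in 53.8% of the members' windows against 35.7%, and the word TTTGAA, known as the CHR element of mitotic genes, in 3.85% against 15.4%. The 27305 windows were neither limited to the genes tested here nor matched to the members' windows in base composition. A match describes letters in a window and is neither a binding site nor a cause. The 160 bases before the start are printed for 3 members that fell (PCNA, GINS2 and MCM6), 1 that rose (POLE) and 1 that did not pass the threshold (TYMS), so that the words can be seen in members of each kind. Words are in capitals, sequences read 5′ to 3′ on the gene's strand, and positions are chr20:5126623-5126782 (minus strand) for PCNA, chr16:85688955-85689114 (minus) for GINS2, chr2:135876444-135876603 (minus) for MCM6, chr12:132687343-132687502 (minus) for POLE and chr18:657493-657652 (plus) for TYMS.
PCNA: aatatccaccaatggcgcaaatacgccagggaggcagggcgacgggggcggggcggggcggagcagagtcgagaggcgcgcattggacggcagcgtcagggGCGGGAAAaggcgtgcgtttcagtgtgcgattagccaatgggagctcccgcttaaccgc
GINS2: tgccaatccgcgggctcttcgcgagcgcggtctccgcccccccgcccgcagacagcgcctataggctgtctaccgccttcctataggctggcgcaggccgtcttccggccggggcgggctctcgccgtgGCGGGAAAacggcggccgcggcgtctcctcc
MCM6: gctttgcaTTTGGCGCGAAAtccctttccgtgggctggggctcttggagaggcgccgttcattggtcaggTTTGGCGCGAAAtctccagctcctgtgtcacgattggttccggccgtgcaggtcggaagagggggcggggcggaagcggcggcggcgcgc
POLE: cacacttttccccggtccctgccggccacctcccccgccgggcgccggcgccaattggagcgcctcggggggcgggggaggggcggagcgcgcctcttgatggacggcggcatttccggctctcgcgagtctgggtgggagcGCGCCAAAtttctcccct
TYMS: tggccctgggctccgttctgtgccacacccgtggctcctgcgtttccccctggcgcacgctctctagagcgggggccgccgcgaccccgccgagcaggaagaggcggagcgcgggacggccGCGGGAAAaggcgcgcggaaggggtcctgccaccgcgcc
The first base of the word lies 59 bases before the start in PCNA, 31 in GINS2, 18 in POLE and 39 in TYMS. MCM6 holds 4 words in overlapping pairs on opposite strands, at 152 and 148 and at 90 and 86 bases before the start.

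Licensing had the highest share of falls among the 6 steps. Of the 15 members of this step 13 fell (86.7%, against 25.2% of all genes) and none rose (against 23.4%). The median log2 fold change was -0.73, and the 2 that did not pass were the origin recognition subunits ORC2 and ORC6. Summed over the step, levels were 1634 to 1686 CPM with Supinoxin and 2694 to 3263 CPM without. In the origin recognition complex, the ATPase subunit ORC1 was at 36.6, 35.7 and 32.2 CPM with Supinoxin and at 74.2, 70.8 and 65.1 CPM without. It fell with a log2 change of -1.01 (SE 0.12, edgeR adjusted p = 0.000369), and ORC3, ORC4 and ORC5 fell with -0.72, -0.55 and -0.48. ORC5 missed the threshold without Supinoxin replicate 2 or 3, which left 12 falls in the step, and with library size alone both ORC4 and ORC5 missed it, which left 11. ORC2, a core subunit, was at 42.1, 43.6 and 41.6 CPM with Supinoxin and at 30.4, 37.8 and 41.5 CPM without. All 3 Supinoxin values were above the untreated ones, the closest barely so, and the log2 change of 0.21 (SE 0.14, edgeR adjusted p = 0.231) did not pass. ORC6 was at -0.27 and passed only without untreated replicate 1 or with length and GC trends removed.

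Both factors that load the MCM ring, and the inhibitor of one of them, fell. CDC6, the ATPase that joins the origin complex, was at 22.7 ± 0.923 CPM with Supinoxin and 45.2 ± 3.52 CPM without (SD, n = 3 each). Its log2 fold change was -1.0 (SE 0.12, edgeR adjusted p = 0.000375). CDT1, the chaperone that brings the MCM ring, was at 85.5, 88.9 and 83.5 CPM with Supinoxin and at 295, 167 and 159 CPM without. The groups did not overlap, and untreated replicate 1 was the highest of the 6 by far. CDT1 had a log2 change of -1.27 (SE 0.23, edgeR adjusted p = 0.00212), -0.91 without that library and -0.75 with length and GC trends removed. GMNN, which encodes the CDT1 inhibitor geminin, fell as well, from 125 ± 11 to 75.4 ± 2.34 CPM (SD, n = 3 each), a log2 change of -0.73 (SE 0.12, edgeR adjusted p = 0.00164). The log2 ratio of CDT1 to GMNN, in CPM per kilobase of exonic length, was 0.0331 ± 0.0903 with Supinoxin and 0.517 ± 0.458 without (exact permutation p = 0.2, two-sided, with 0.1 the smallest value that 3 against 3 libraries allow). The difference of -0.484 became -0.234 when untreated replicate 1 was left out.

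All 6 subunits of the MCM2-7 ring fell, by unequal amounts. MCM5 (chromosome 22, 35400134 to 35425431, GRCh38) was at 103, 103 and 92.2 CPM with Supinoxin and at 344, 253 and 232 CPM without. The Supinoxin libraries lay far below the lowest untreated one, and the log2 fold change was -1.48 (SE 0.17, edgeR adjusted p = 0.000299), a 2.78-fold fall. MCM6 was at 102, 112 and 106 CPM with Supinoxin and at 207, 247 and 243 CPM without. Here untreated replicate 1 was the lowest of the untreated libraries, and the log2 fold change was -1.12 (SE 0.13, edgeR adjusted p = 0.000307). MCM7, MCM4, MCM2 and MCM3 followed with -0.84, -0.80, -0.68 and -0.54. This order depended on the fit. Without untreated replicate 1, MCM7 was at -0.64 and MCM4 at -0.75. With length and GC trends removed, MCM4 was at -1.11, beside -1.09 for MCM6, and MCM7 was at -0.75. In CPM per kilobase, MCM7 was the most abundant ring transcript in both groups, at 150 without and 84.0 with Supinoxin.

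**Figure D2:**
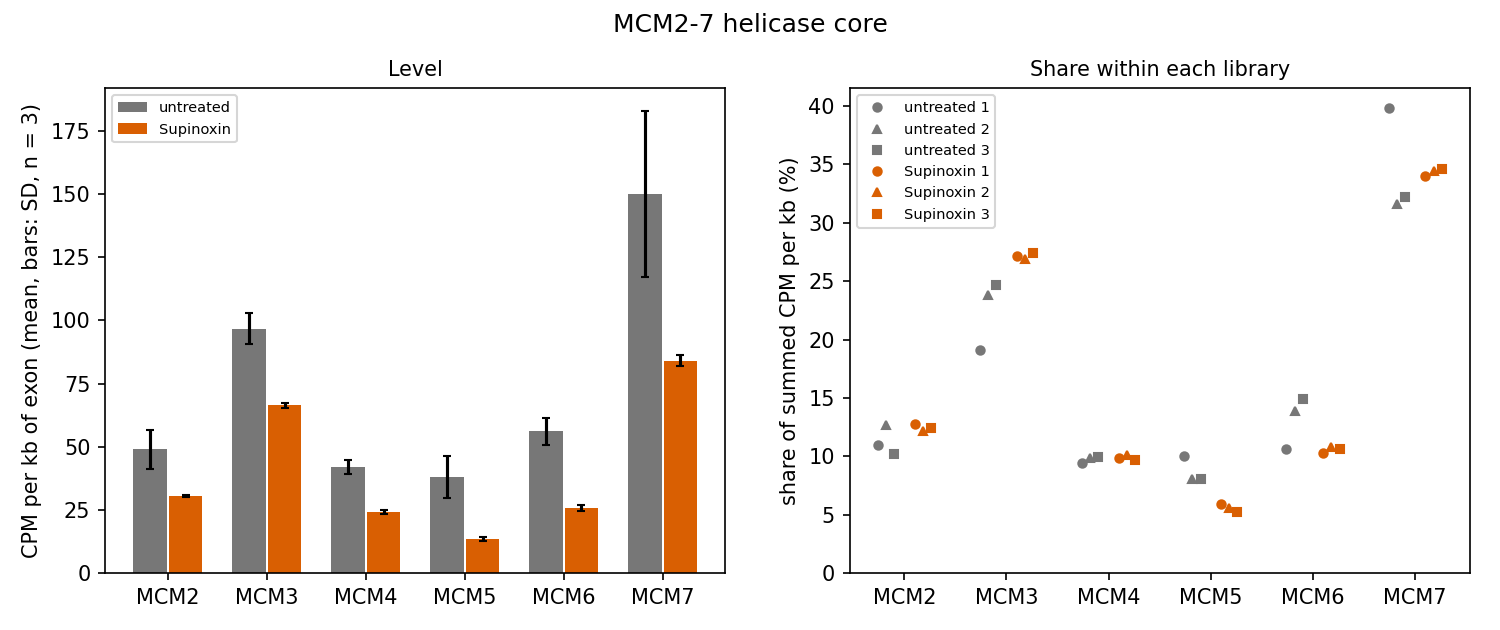
Left, mean CPM per kilobase of the 6 MCM2-7 transcripts in each group, with bars for the SD over 3 libraries. Right, each transcript's share of the summed CPM per kilobase, in percent, with a point for each library. All 6 levels are lower with Supinoxin, the share of MCM5 is lower and the share of MCM3 is higher in all 3 Supinoxin libraries.

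As a share of the 6 summed in CPM per kilobase, MCM5 made up 5.58% ± 0.33 with Supinoxin and 8.74% ± 1.12 without, and MCM3 27.2% ± 0.278 with and 22.5% ± 3.00 without (SD, n = 3 each). Without untreated replicate 1 the difference in the MCM3 share went from 4.61 to 2.90 percentage points. In both shares the groups did not overlap, at the smallest exact permutation p of 0.1. Over the 11 ratios and shares computed, 6 reached that value (0.183 when adjusted over the 11), so none could pass 0.05 by design. The shares of MCM2, MCM4, MCM6 and MCM7 had exact permutation p of 0.3, 0.6, 0.2 and 1.

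Helicase activation was mixed, with falls in the helicase's own parts. The 2 rises made up 20% of its tested members, near the 23.4% of all genes that rose, and the 5 falls 50%. Of 10 members tested, 5 fell (CDC45, GINS1, GINS2, GINS3 and MCM10), 2 rose (TICRR and DBF4) and 3 did not pass. The median log2 fold change was -0.31. GINS2 (chromosome 16, 85676198 to 85690073), a subunit of the GINS complex, was at 26.3, 28.4 and 26.8 CPM with Supinoxin and at 94.1, 70.0 and 77.9 CPM without. It had a log2 change of -1.57 (SE 0.14, edgeR adjusted p = 0.000105), and GINS3 and GINS1 fell with -0.72 and -0.68. CDC45, the helicase's other cofactor, was at 40.2, 43.0 and 38.3 CPM with Supinoxin and at 80.9, 68.7 and 66.1 CPM without. The groups lay well apart, with a log2 change of -0.83 (SE 0.13, edgeR adjusted p = 0.00112). MCM10, which helps start unwinding, had -0.45 (SE 0.13, edgeR adjusted p = 0.0194) and lost its call when any of the Supinoxin libraries was left out. GINS4 was listed at 0 in every library and was not tested; that is not read as silence of the gene.

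TICRR, which encodes treslin, the factor that helps bring CDC45 to the ring, rose. It was at 7.09, 6.39 and 5.99 CPM with Supinoxin and at 1.89, 2.75 and 1.96 CPM without. It was the least abundant tested member, with 949 counts over the 6 libraries, and every Supinoxin value was above every untreated one. Its log2 fold change was 1.56 (SE 0.20, edgeR adjusted p = 0.000512), a 2.94-fold rise, and it passed in all 15 alternatives. DBF4, the activating subunit of the CDC7 kinase, was at 125, 112 and 122 CPM with Supinoxin and at 76.7, 87.4 and 102 CPM without. Its log2 change of 0.43 (SE 0.14, edgeR adjusted p = 0.0305) did not pass without Supinoxin replicate 1, 2 or 3 or untreated replicate 2, which leaves 1 rise in this step. CDC7 itself was at -0.16 and did not pass. TOPBP1, the scaffold that binds treslin, was at 88.1, 88.2 and 88.0 CPM with Supinoxin and at 68.7, 96.8 and 99.5 CPM without. The untreated values straddled the Supinoxin ones, with a log2 change of 0.00 (SE 0.16, edgeR adjusted p = 0.986). WDHD1, which ties polymerase alpha to the helicase, was at -0.09 and did not pass.

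**Figure D3:**
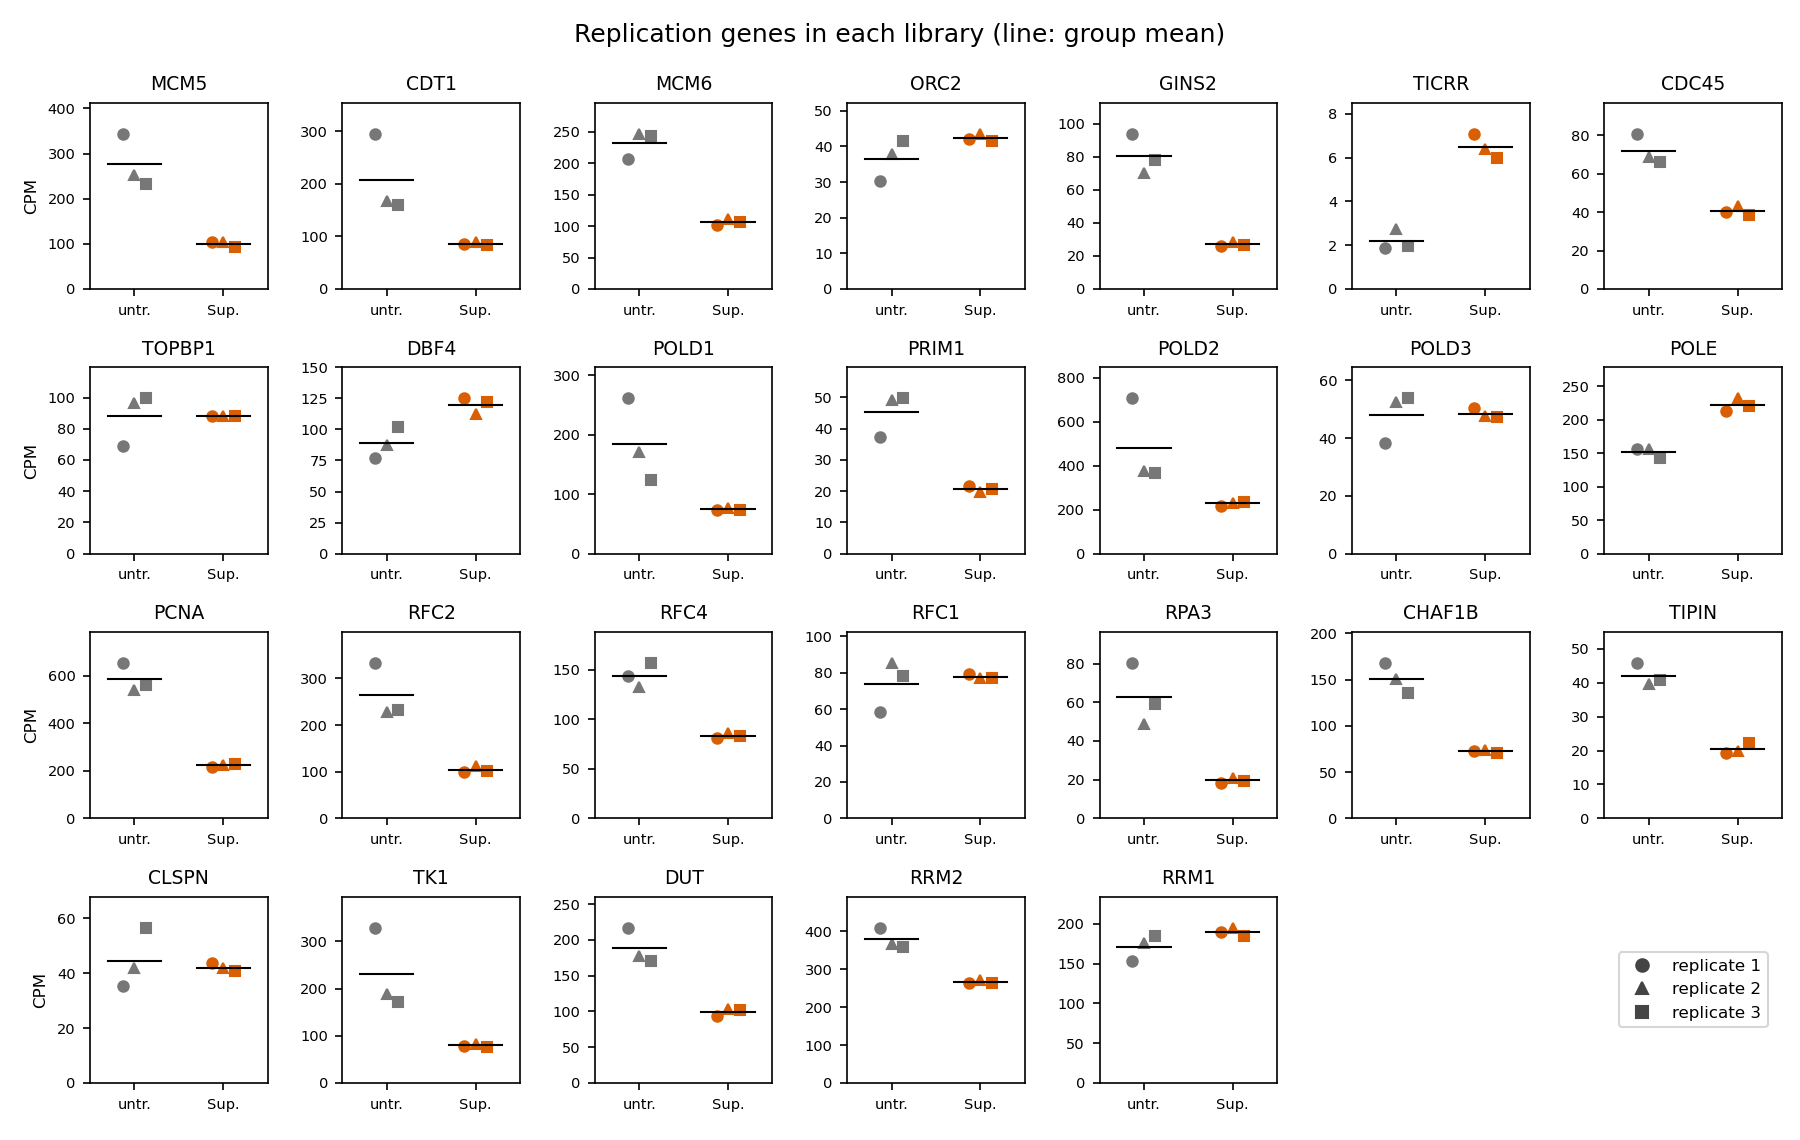
CPM of the members given in full for each step, on linear axes that start at 0; points are single libraries and lines are group means. The Supinoxin libraries of PCNA lie at 218 to 230 CPM and the untreated ones at 540 to 654 CPM, whereas those of TOPBP1 and POLD3 lie among the untreated libraries.

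Among the polymerases, calls differed between subunits of the same enzyme, in opposite directions only in polymerase epsilon. Within polymerase delta and primase, differences in fold change between subunits were not tested. Of 9 members tested, 4 fell (POLD1, POLD2, PRIM1 and POLE3), POLE rose and 4 did not pass. The falls made up 44.4%, against 25.2% of all genes, and the rise 11.1%, against 23.4%. The median log2 fold change was -0.25. POLD1, the catalytic subunit of polymerase delta, was at 73.9, 76.1 and 73.9 CPM with Supinoxin and at 261, 170 and 124 CPM without. Its log2 fold change was -1.31 (SE 0.24, edgeR adjusted p = 0.0022), and -0.97 without untreated replicate 1. POLD2, the subunit that bridges the catalytic one to the rest, was at 217, 230 and 237 CPM with Supinoxin and at 706, 375 and 365 CPM without. Untreated replicate 1 was well above the other untreated libraries, and the log2 change of -1.08 (SE 0.24, edgeR adjusted p = 0.00581) became -0.69 without it. POLD3, an accessory subunit of the same enzyme, was at 50.5, 47.8 and 47.3 CPM with Supinoxin and at 38.4, 52.4 and 53.8 CPM without. Its groups overlapped, with a log2 change of 0.01 (SE 0.15, edgeR adjusted p = 0.963).

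Calls also differed between the subunits of primase and between those of polymerase epsilon. PRIM1, the catalytic primase subunit, was at 21.5, 19.7 and 20.8 CPM with Supinoxin and at 37.2, 49.2 and 49.7 CPM without. It fell with a log2 change of -1.13 (SE 0.15, edgeR adjusted p = 0.000489), while its partner PRIM2 was at -0.09 (adjusted p = 0.662, same test) and POLA1, the catalytic subunit of polymerase alpha, at 0.09 (adjusted p = 0.702). POLA1 turned to -0.29 and passed, with adjusted p = 0.0161, when length and GC trends were removed. POLA2 was listed at 0 throughout and was not tested. POLE (chromosome 12, 132623753 to 132687376), the leading-strand polymerase, was at 213, 232 and 220 CPM with Supinoxin and at 157, 157 and 143 CPM without. All Supinoxin values were higher, and the log2 change of 0.54 (SE 0.12, edgeR adjusted p = 0.00562) was 0.27 with length and GC trends removed and still passed. POLE3, a histone-fold subunit of that enzyme, fell with -0.80 (SE 0.14, edgeR adjusted p = 0.00156), and POLE2 was at -0.25 and did not pass. The log2 ratio of POLE to POLE2 in CPM per kilobase was 0.582 ± 0.0887 with Supinoxin and -0.213 ± 0.165 without (exact permutation p = 0.1). No ratio was computed with length and GC trends removed, where POLE was at 0.27 and POLE2 at -0.12.

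Clamp and clamp loader fell unevenly too. Of 7 members tested, 5 fell (PCNA, RFC2, RFC4, RFC5 and LIG1), none rose and RFC1 and RFC3 did not pass. The falls made up 71.4%, against 25.2% of all genes, of which 23.4% rose. The step's median log2 fold change was -0.42. RFC5 and the ligase LIG1, at -0.37 and -0.42, each missed the threshold without Supinoxin replicate 1, 2 or 3 or untreated replicate 2, so 3 falls were left in each of those comparisons. PCNA (chromosome 20, 5114953 to 5126626), the sliding clamp, was at 218, 226 and 230 CPM with Supinoxin and at 654, 540 and 563 CPM without. The groups were far apart relative to their spread, with a log2 change of -1.38 (SE 0.13, edgeR adjusted p = 0.000118), a 2.60-fold fall. In CPM per kilobase PCNA was the most abundant member in both groups, at 417 without and 160 with Supinoxin. RFC2, a small subunit of the clamp loader, was at 99.3, 112 and 101 CPM with Supinoxin and at 333, 229 and 232 CPM without. The fall had a log2 value of -1.35 (SE 0.17, edgeR adjusted p = 0.000469). RFC4, another small subunit, was at 80.8, 86.6 and 83.1 CPM with Supinoxin and at 144, 133 and 157 CPM without. It had a log2 change of -0.79 (SE 0.12, edgeR adjusted p = 0.00112). RFC1, the large subunit that defines this loader, was at 79.5, 77.1 and 76.9 CPM with Supinoxin and at 58.2, 85.4 and 78.3 CPM without. The groups overlapped, at 0.07 on the log2 scale (SE 0.15, edgeR adjusted p = 0.712). The log2 ratio of RFC1 to the mean of RFC2 to RFC5, in CPM per kilobase, was -1.64 ± 0.0488 with Supinoxin and -2.51 ± 0.408 without (exact permutation p = 0.1). The difference of 0.867 became 0.639 when untreated replicate 1 was left out. The flap nuclease FEN1 had 49 counts over the 6 libraries and was not tested.

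At the single-stranded DNA and behind the fork, 4 of 9 members fell (44.4%, against 25.2% of all genes) and none rose (against 23.4%). The median log2 fold change was -0.28. RPA3, the smallest subunit of the single-strand binding protein RPA, was at 18.2, 21.1 and 19.5 CPM with Supinoxin and at 80.3, 48.7 and 59.1 CPM without. It had the largest fall of the 55 members tested, with a log2 change of -1.68 (SE 0.19, edgeR adjusted p = 0.00027), and -1.45 without untreated replicate 1. RPA2 fell with -0.78, and RPA1, the large subunit, was at -0.22 (SE 0.12, edgeR adjusted p = 0.173). TIPIN, a fork protection factor, was at 19.4, 20.0 and 22.1 CPM with Supinoxin and at 45.8, 39.6 and 40.9 CPM without. It fell with a log2 change of -1.04 (SE 0.13, edgeR adjusted p = 0.000362), while TIMELESS, its binding partner, was at 0.19 and did not pass. CLSPN, which encodes the checkpoint mediator claspin, was at 43.7, 41.8 and 40.6 CPM with Supinoxin and at 35.4, 41.7 and 56.5 CPM without. The untreated values spanned the Supinoxin ones, with a log2 change of -0.08 (SE 0.17, edgeR adjusted p = 0.711). CHAF1B, a subunit of the histone chaperone CAF-1, was at 72.8, 74.1 and 71.1 CPM with Supinoxin and at 168, 151 and 136 CPM without. It fell with a log2 change of -1.06 (SE 0.13, edgeR adjusted p = 0.000356), while CHAF1A of the same chaperone was at -0.28 and UHRF1, which reads hemimethylated DNA, at -0.27, and neither passed. With length and GC trends removed, 7 of the 9 passed as lower, RPA1, CLSPN and UHRF1 joining them.

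In nucleotide supply 3 of 5 members fell (60%, against 25.2% of all genes) and none rose (against 23.4%). Their median log2 fold change was -0.51. TK1, the thymidine salvage kinase, was at 79.1, 83.0 and 77.0 CPM with Supinoxin and at 329, 189 and 172 CPM without. It had a log2 change of -1.53 (SE 0.23, edgeR adjusted p = 0.00103), -1.17 without untreated replicate 1 and -1.02 with length and GC trends removed. DUT, the dUTPase that keeps uracil out of DNA, was at 94.0, 103 and 102 CPM with Supinoxin and at 217, 178 and 171 CPM without. It fell with a log2 change of -0.92 (SE 0.14, edgeR adjusted p = 0.000931). RRM2, the S-phase small subunit of ribonucleotide reductase, was at 264, 270 and 264 CPM with Supinoxin and at 409, 366 and 358 CPM without. The fall was -0.51 on the log2 scale (SE 0.12, edgeR adjusted p = 0.00782), -0.80 with length and GC trends removed, and it missed the threshold at -0.50 without Supinoxin replicate 1 or 3. RRM1, the large subunit, was at 189, 195 and 185 CPM with Supinoxin and at 153, 176 and 185 CPM without. The groups overlapped, with a log2 change of 0.15 (SE 0.13, edgeR adjusted p = 0.364). The log2 ratio of RRM2 to RRM1 in CPM per kilobase was -0.624 ± 0.0237 with Supinoxin and 0.0309 ± 0.242 without, and that of RRM2B, the p53-inducible small subunit, to RRM2 was -3.01 ± 0.109 with and -3.44 ± 0.352 without (exact permutation p = 0.1 for each). Without untreated replicate 1 the difference in the ratio of RRM2B to RRM2 went from 0.435 to 0.232. TYMS, thymidylate synthase, was at 0.18 (SE 0.12, edgeR adjusted p = 0.237); a gene on the opposite strand covers 47.9% of its exonic bases, and reads of these genes cannot be told apart because the strand setting is not given.

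Other exon overlaps above 10% were with a gene on the opposite strand in MCM2 (23.6%), DUT (14.5%), GINS3 (10.9%) and RFC5 (10.6%), and on the same strand in TIPIN (21.1%) and PRIM1 (15.1%). Of the members listed at 0, GINS4 shares 23.4% of its exonic bases with a gene on the opposite strand and POLA2 shares 16.8% with a gene on the same strand, and the part of this in their counts was not tested. Pseudogenes named after a member held no count in any library, except 11 counts for that of POLD2.

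Exonic length and GC content moved with the fold changes. Exonic length is the union of a gene's exons over all its annotated transcripts, and GC content is that of the longest transcript. The union can exceed the length of any single transcript, and levels in CPM per kilobase, with their ratios and shares, rest on it. Over the 55 members the Spearman correlation of the log2 fold change was 0.45 with exonic length and -0.37 with GC content, against 0.26 and -0.16 over 15926 genes. The 28 members at or under the median exonic length of 4595 bases had a median log2 fold change of -0.79, with 20 lower and 1 higher. The 27 above it had -0.42, with 14 lower and 2 higher. Among the members, the excess of untreated replicate 1 over the other untreated libraries had a correlation of 0.65 with GC content and -0.30 with length. Without that library the correlations of the fold change were 0.46 with length and -0.27 with GC content. With each library's length and GC trends removed, the correlation was 0.18 with length and -0.28 with GC content, and 39 members fell and 4 rose, the 34 falls and 3 rises among them. ORC6, POLA1, RPA1, CLSPN and UHRF1 were the added falls and TYMS the added rise.

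**Figure D4:**
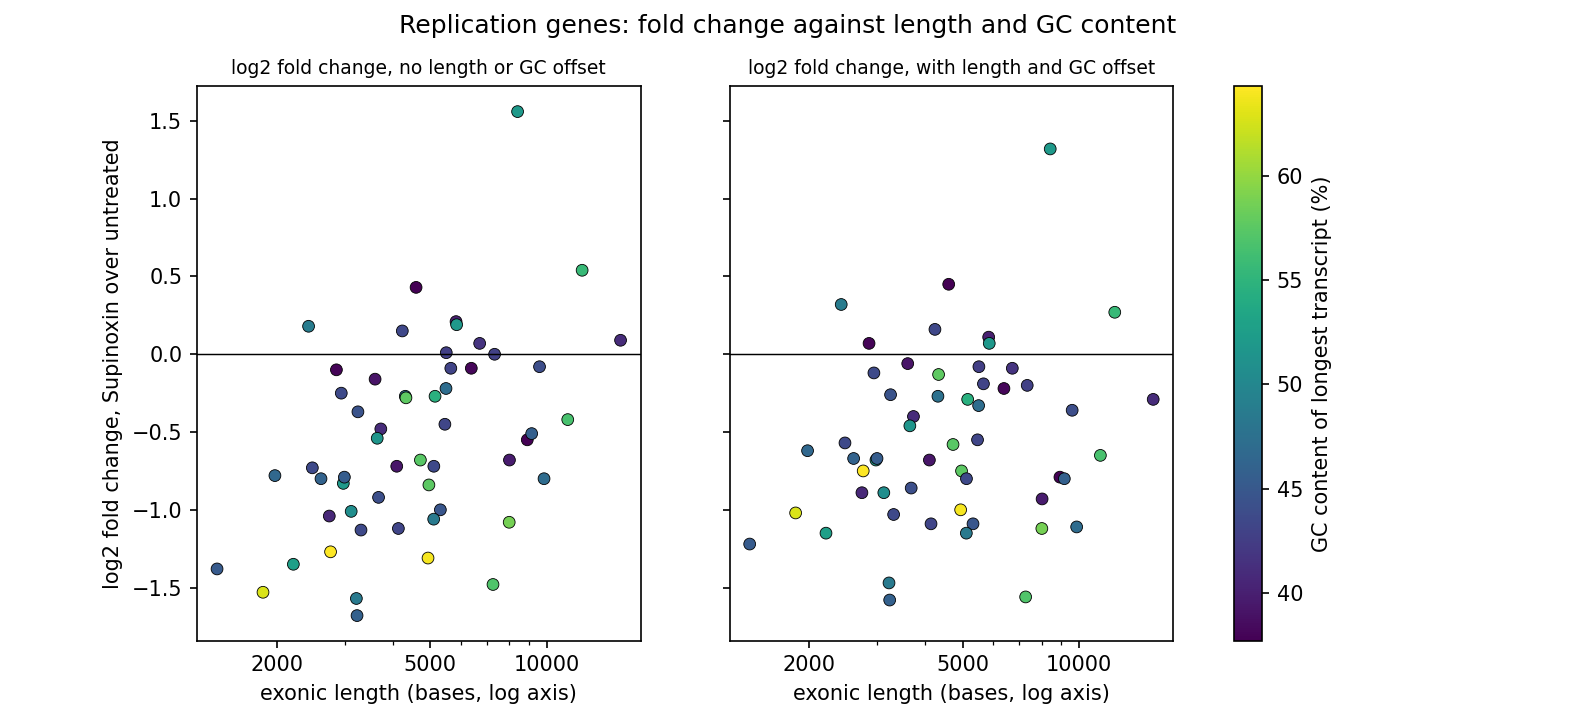
Log2 fold change of the 55 tested members against exonic length in bases (log axis), without (left) and with (right) removal of each library's length and GC trends; colour gives GC content in percent. In the left panel short members reach lower values, with medians of -0.79 at or under 4595 bases and -0.42 above.

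Counts for other genes of the pathway are read against the 25.2% of all genes that fell and the 23.4% that rose. Of 30 further replication factors tested, 10 fell (33.3%, near the share of all genes) and 4 rose (7 without untreated replicate 1). Their median log2 fold change was -0.01, and -0.23 with length and GC trends removed. The largest falls were in POLE4, the partner of POLE3 (-1.19), SLBP, which binds histone mRNA (-1.13), and the histone chaperone ASF1B (-1.11). The largest rises were in topoisomerase TOP1 (1.13), the helicase PIF1 (1.10) and DBF4B, a paralogue of DBF4 (1.07). Both orders changed without untreated replicate 1. The falls were then -0.89 for POLE4, -1.1 for SLBP and -0.82 for ASF1B. The rises were 0.89 for TOP1, 1.32 for PIF1 and 1.14 for DBF4B. Of 13 further nucleotide supply genes, 4 fell (30.8%, near the share of all genes) and 1 rose, with a median of -0.30. The falls numbered 1 without Supinoxin replicate 1 or 2 and 2 without Supinoxin replicate 3. DTYMK fell with -0.88, which was -0.45 without untreated replicate 1, and missed the threshold without any one of the Supinoxin libraries. DGUOK fell with -0.85 and the deaminase DCTD rose with 0.93. Of 13 S-phase kinase and checkpoint genes, 4 fell (30.8%, again near it) and 2 rose, with a median of -0.20. With length and GC trends removed, 7 of them fell. RAD1, a subunit of the checkpoint clamp, went from 48.7 ± 2.27 to 17.0 ± 0.665 CPM (SD, n = 3 each; log2 fold change -1.52, edgeR adjusted p = 5.0e-05). The G1/S cyclin CCNE1 fell with -1.0 and the ATR activator ETAA1 with -0.75, while cyclin A2 (CCNA2) rose with 0.98 and the CDK-inhibiting kinase WEE1 with 0.71. Of 12 E2F and pocket protein genes, 6 fell (50%) and 1 rose, with a median of -0.21. The falls numbered 2 without Supinoxin replicate 1, 2 or 3 and 3 without untreated replicate 2, where 2 genes of the list rose. Over all genes, 2789 of 16337, 2941 of 16322 and 2924 of 16441 fell without Supinoxin replicate 1, 2 and 3. The 2 falls of the list were near that share. E2F1 went from 228 ± 66.0 to 86.7 ± 4.18 CPM (SD, n = 3 each), a log2 change of -1.40 (SE 0.20, edgeR adjusted p = 0.000809). Its change was -1.15 without untreated replicate 1. TFDP2 and E2F4 fell with -0.63 and -0.56, E2F4 losing its call without any one of the Supinoxin libraries, and E2F3 rose with 0.83.

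Genes of G2 and mitosis moved the other way. Of 30 tested, 21 rose (70%, against 23.4% of all genes) and 1 fell (3.33%, against 25.2%). Their median log2 fold change was 0.65, and their summed level was 6927 to 7259 CPM with Supinoxin and 4444 to 4580 CPM without. ASPM, a spindle pole protein, went from 66.5 ± 16.2 to 275 ± 13.9 CPM (SD, n = 3 each), a log2 change of 2.05 (SE 0.19, edgeR adjusted p = 0.000114). MKI67, the proliferation marker Ki-67, rose with 1.76 and the kinetochore motor CENPE with 1.41. CDK1, the mitotic kinase, was the single fall, at -0.65 (SE 0.13, edgeR adjusted p = 0.00308). TOP2A belongs to both the mitotic list and the list of further replication factors.

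**Figure D5:**
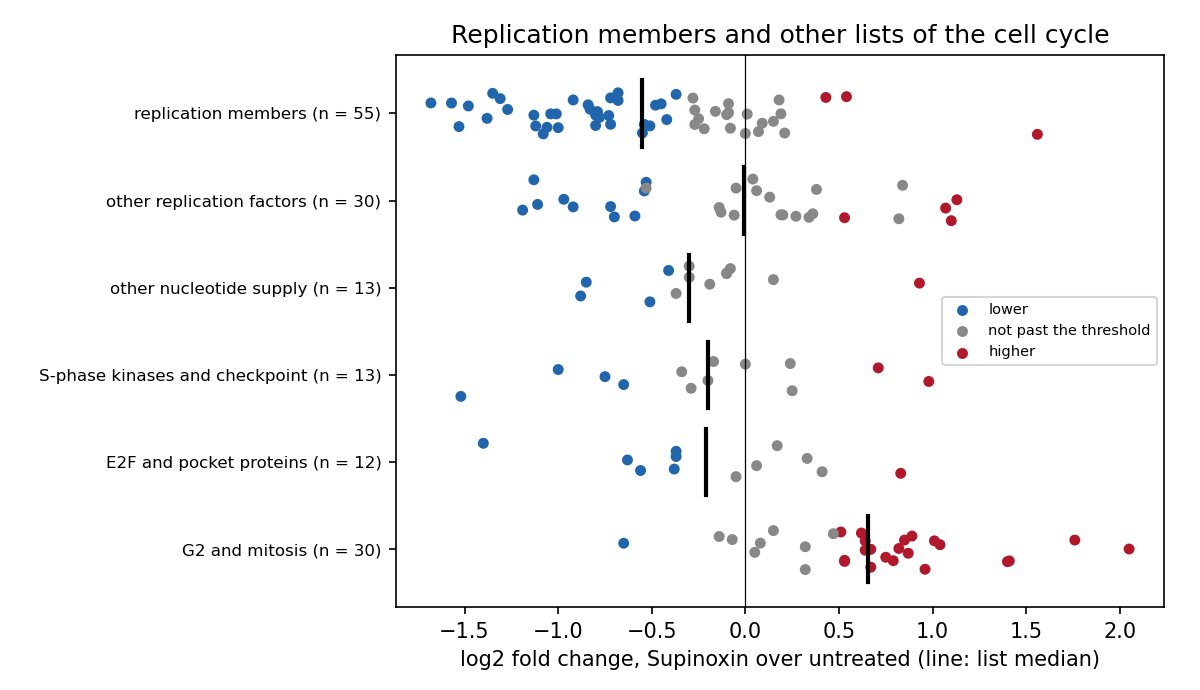
Log2 fold changes (Supinoxin over untreated) of the members and of the other gene lists; each point is a gene, coloured by whether it passed the threshold, and the line in each list is its median. The medians are -0.55 for the members, -0.01 for further replication factors and 0.65 for genes of G2 and mitosis.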

How the data were processed

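RNA was sequenced from 3 Supinoxin and 3 untreated libraries. The authors deposited whole-number counts per Ensembl gene without normalization. Columns named WT were taken as untreated because the others name Supinoxin. The submitters' processing notes name STAR, featureCounts, fastp, Trim Galore 0.4.4, edgeR and DESeq2, without roles, and the build GRCh38. The sources used here give no annotation release, strand setting or treatment of multiply mapped reads. GENCODE 44 matched 60463 of 60605 identifiers.

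In R 4.3.3, edgeR 4.0.16 was run with filterByExpr (15947 genes kept), TMM scaling and a two-sided robust quasi-likelihood test on treatment alone, with Benjamini-Hochberg adjustment and calls at under 0.05. The biological coefficient of variation came to 17%. CPM are means ± SD. Ratios were tested by exact permutation over libraries. Members, lists and tests were chosen with earlier results of these data known. Of each step, the 3 tested members with the largest absolute log2 fold change, the one with the smallest and every rise are given by library; ORC1, CDC6, GMNN and other members were added for their roles. Of other lists, at most 3 genes per direction are named, and some results for single genes are left out.

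Alternatives were library size, RLE factors, other filters, DESeq2 1.42.0, limma-voom (limma 3.58.1), a replicate block, an offset for length and GC trends, a threshold of 0.01 and each library left out. The script was tested on simulated data.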

Additional observations from a re-analysis of the deposited data

How the results depend on the processing

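Of the values tried under the 15 alternatives, members lower ranged from 29 to 40 and members higher from 2 to 4. The members' median of -0.55 was -0.41 with library size alone, which moves the median of all genes by 0.14, -0.59 without a filter, -0.62 with the length and GC offset and -0.58 to -0.54 leaving out single libraries. With library size alone the step medians were -0.59 for licensing, -0.18 for helicase activation, -0.12 for polymerases, -0.27 for the clamp step, -0.14 for the fork step and -0.36 for nucleotide supply. Leaving out single libraries gave -0.81 to -0.68 for licensing, -0.41 to -0.22 for helicase activation, -0.53 to -0.39 for the clamp step and -0.35 to -0.26 for the fork step. The offset gave medians of -0.65 for the clamp step, -0.36 for the fork step and -0.80 for nucleotide supply, with 7 falls in the fork step and 1 rise in nucleotide supply. Falls in the clamp step numbered 3 with library size alone, without a filter (median -0.58), with the replicate block and at 0.01, and 3 to 5 leaving out single libraries; rises in helicase activation numbered 1 with the block and at 0.01, and 1 to 2 leaving out single libraries. At 0.01, 2269 genes were higher and 2562 lower in all, and leaving out single libraries gave 2556 to 4334 higher and 2789 to 4477 lower. The cause was not tested where none is named.

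Signs turned only in members that did not pass: CLSPN (0.04 with library size alone, -0.21 to 0.12 leaving out single libraries), POLA1 (-0.29 with the offset, -0.08 to 0.26), POLD3 (-0.08 with the offset, -0.12 to 0.09), PRIM2 (0.04 with library size alone, -0.17 to 0.09), RFC1 (-0.09 with the offset, -0.07 to 0.20), RFC3 (0.03 with library size alone, 0.07 with the offset), TOPBP1 (0.12 with library size alone, 0.02 without a filter, with limma-voom and with the block, -0.15 to 0.09) and WDHD1 (0.03 with library size alone, -0.25 to 0.03). The median of further replication factors was 0.14 with library size alone, -0.23 with the offset and 0.02 with limma-voom and with the block. It was -0.05 to 0.06 leaving out single libraries. Falls among E2F and pocket protein genes numbered 3 with library size alone, without a filter and with the block, and 2 at 0.01; those among further nucleotide supply genes 2 with library size alone and at 0.01 and 9 with the offset; and those among S-phase kinase and checkpoint genes 7 with the offset. The differences in MCM share, in percentage points, were -0.0243 to 0.236 for MCM4 and -1.64 to 2.43 for MCM7. E2F-type words were in 36.5% of the members' windows and 1.71% of all windows within 100 bases before the start, and in 48.1% and 3.99% when any listed window counted, an alternative chosen after seeing the data.

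Same-numbered libraries did not deviate together (correlations of -0.133, -0.043 and -0.029 over 15947 genes), so the replicate numbers were not taken as pairs. With the replicate block, 32 members fell and 2 rose, and 3588 genes were higher and 3650 lower in all. Genes listed at 0 or with few counts limit what can be said of GINS4, POLA2 and FEN1. In the other lists, CDK2, E2F8, ASF1A, RNASEH2A, POLD4 and DCTPP1 were listed at 0 in every library. PCLAF, PRC1, NUSAP1, NME1 and CHTF8 held 2 to 56 counts over the 6 libraries. None of these genes was tested.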
